A study of Mus musculus with 4 samples.

Results

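The Dlx, Msx and Alx homeobox genes described here are *Dlx1*, *Dlx2*, *Dlx3*, *Dlx5*, *Dlx6*, *Msx1*, *Msx2*, *Alx1* and *Alx4*. They were taken by gene name from the annotation of the array, and all 9 were found, out of 37325 genes, with 11 of its 56604 probes. Each encodes a transcription factor that binds DNA through a homeodomain. The Dlx genes lie in neighbouring pairs and are expressed in nested domains of the pharyngeal arches, so that their combination marks the upper and the lower jaw, and some also act in the forebrain, the limb ridge and the placenta. The Msx genes respond to BMP signals in the arches, palate, tooth germs and limb buds. The Alx genes act in the frontonasal neural crest, which forms the middle of the face, and *Alx4* also in the anterior limb bud.

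The study compared whole C57BL/6 embryos (C57BL/6J in the paper's methods) without and with a knockout of *Dyrk2*, a protein kinase, on embryonic days E8.5 and E10.5. The mutant alleles are small deletions made with the CRISPR/Cas9 nickase system, and which of them the embryos on the arrays carried is not given in the sources used here, nor is it given how many embryos were pooled, if any, for an RNA. The 4 groups were WT embryos and *Dyrk2*-/- embryos of each age. All 4 one-colour Agilent arrays came from 1 slide. With 1 array per group, no difference between groups has a replicate. Levels are given as log2 of the processed intensity minus the 75th percentile of the array, and an error given with a log2 ratio is that of the scanner software for the spots, which does not cover differences between embryos. A gene with several probes is represented by its brightest probe.

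The targeted gene was measured first. At its brightest probe *Dyrk2* read 0.06 (WT) and 0.76 (labelled *Dyrk2*-/-) for E8.5, and −0.31 and 0.34 for E10.5. Both arrays labelled *Dyrk2*-/- were thus above WT of their age, 1.62-fold and 1.57-fold, and the sign held under each scaling tried, with log2 ratios of 0.15 at the lowest for E8.5 (spike-in scaling) and 0.52 for E10.5 (no scaling), both under 1.5-fold. Its other probe was within 1.5-fold at both stages. Where its probes lie relative to the deletions was not analysed here, so that they do not check the labels. The arrays are called here as the submitters labelled them, so that what is written about genotype holds only if the labels do.

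Between the stages, 5 of the 9 passed 1.5-fold upwards at E10.5 in WT, against 18.8% of 21788 measured genes, and 0 downwards, against 17.5%. On the arrays labelled *Dyrk2*-/-, 4 of 9 were higher, against 17.5% of 21405 genes, and 0 were lower, against 13.9%. *Dlx1*, *Dlx2*, *Alx1* and *Alx4* were higher at E10.5 in both genotypes, and *Dlx6* passed the threshold in WT. *Dlx1* entered these counts through the E10.5 arrays alone. With the filter on both arrays of a pair the counts were 4 in WT and 3 in *Dyrk2*-/-, for which no share of all genes is given. Between the genotypes at E8.5, 2 of the 8 genes measured there were 1.5-fold or more higher on the array labelled *Dyrk2*-/-, *Dlx2* and *Alx4*, against 5.14% of 20848 genes, and 0 were lower, against 6.52%. At E10.5, *Dlx5* was 1 of 9 genes past the threshold upwards, against 3.5% of 21351 genes, and *Dlx6* 1 of 9 downwards, against 4.22%.

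The split between the genotypes depended on the scaling. The spike-in scaling subtracts the median of 7 control probes, those of 10 that were well above background on all 4 arrays. It gave all genes a median log2 ratio of −0.57 in place of −0.02 for E8.5, and of 0.16 in place of −0.00 for E10.5. Leaving out scaling gave −0.28 and −0.13. Under the spike-in scaling, 0 of the 8 measured genes passed 1.5-fold upwards and 2 downwards at E8.5, which were *Msx2* (log2 ratio −0.80) and *Alx1* (−0.60), against 1.4% and 47.6% of all genes. At E10.5, 1 was higher and 0 lower, against 5.86% and 2.59%. With no scaling, 0 were higher and 0 lower at E8.5 (all genes 2.46% and 15.4%), and 0 were higher and 1 lower at E10.5 (2.66% and 6.55%). Between the stages, the spike-in scaling moved the median of all genes from −0.08 to −0.15 in WT, where 5 genes were then higher and 1 lower (all genes 17.0% and 20.6%), and from −0.05 to 0.59 in *Dyrk2*-/-, where 6 were higher and 0 lower (50.1% and 4.6%). With no scaling the median between the stages was 0.10 in WT and 0.25 in *Dyrk2*-/-.

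**Figure D1:**
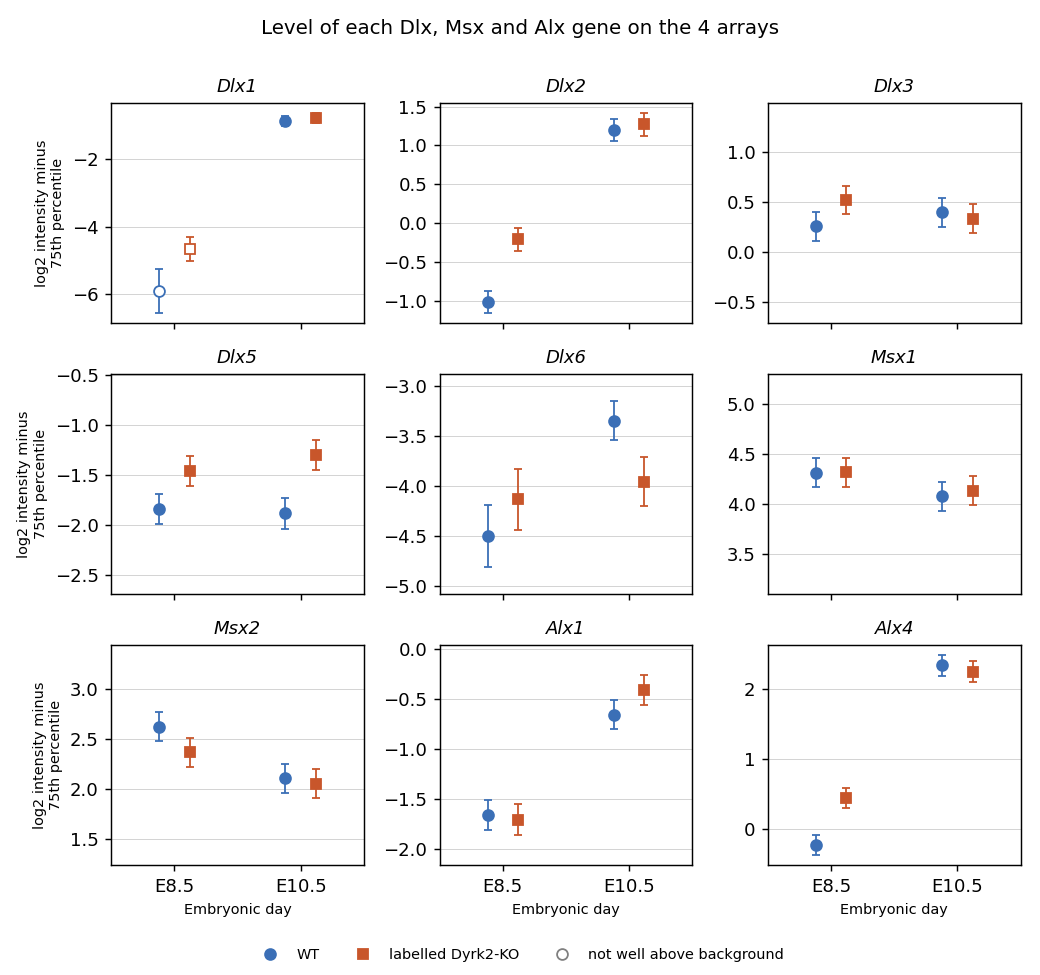
Level of each gene on the 4 arrays (y axis, log2 intensity minus the 75th percentile of the array, with its own range in each panel) against embryonic day, for WT (circles) and the arrays labelled *Dyrk2*-/- (squares), with 1 array per point, the scanner software's error for its spots as bars, and open symbols for probes not well above background. *Dlx1*, *Dlx2*, *Alx1* and *Alx4* are higher at E10.5 than at E8.5 in both genotypes, while the levels of *Msx1* lie between 4.08 and 4.32.

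*Dlx1* and *Dlx2* lie next to each other on chromosome 2 and are expressed in the neural crest of the arches, where they are needed for the upper jaw, and in the ventral forebrain. The brightest *Dlx1* probe (NM_010053, chromosome 2 of mm9, 71371499 to 71371558) read −5.90 (WT) and −4.66 (labelled *Dyrk2*-/-) for E8.5, both not well above background, then −0.88 and −0.80 for E10.5. The gene was therefore measured at E10.5 only, at about the same level on both arrays. Against the background limit of the E8.5 arrays, it was at least 15.4-fold higher at E10.5 in WT and at least 13.2-fold higher in *Dyrk2*-/-. After a normexp correction the log2 ratios were 2.13 and 1.80, below these bounds. Such a bound is taken against whichever is higher on the dim array, the probe's own value or the dimmest value that still counted there as well above background. The genotype log2 ratio at E10.5 was 0.08 ± 0.21, and −0.05 with no scaling. Another *Dlx1* probe, of which 73.3% of the bases are G or C, did not stand well above background anywhere.

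*Dlx2* (NM_010054, chromosome 2, 71381612 to 71381671) read −1.01 (WT) and −0.21 (labelled *Dyrk2*-/-) for E8.5, then 1.20 and 1.27 for E10.5. Both E10.5 arrays were thus above both E8.5 arrays, and at E8.5 the array labelled *Dyrk2*-/- lay between WT and the later stage. *Dlx2* was 4.63-fold higher at E10.5 in WT (log2 ratio 2.21 ± 0.21) and 2.78-fold higher in *Dyrk2*-/- (1.48 ± 0.20), which were 2.14 and 2.12 with spike-in scaling. At E8.5 it was 1.75-fold higher on the array labelled *Dyrk2*-/- (0.81 ± 0.21), which was 0.26 under the spike-in scaling and 0.55 with no scaling. At E10.5 the ratio was 0.07 ± 0.20, and −0.06 with no scaling.

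*Dlx5* and *Dlx6* are neighbours on chromosome 6 and are switched on by endothelin in the lower part of the arches, where they set lower jaw identity. *Dlx5* (NM_010056, chromosome 6, 6828063 to 6828122) read −1.84 (WT) and −1.46 (labelled *Dyrk2*-/-) for E8.5, then −1.88 and −1.30 for E10.5. The array labelled *Dyrk2*-/- was the higher one at both stages, though at E8.5 not with spike-in scaling. Within a genotype the stages differed by less than the error of the spots, by −0.04 in WT, which was 0.14 with no scaling, and by 0.17 in *Dyrk2*-/-, which was 0.80 with spike-in scaling and 0.47 with none. The ratio between the genotypes was 0.38 ± 0.21 at E8.5, where it became −0.17 under the spike-in scaling, and 0.59 ± 0.21 at E10.5. The latter lay just past the threshold, and was 0.45 with no scaling and 0.40 under a normexp background correction.

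*Dlx6* (NM_010057, chromosome 6, 6815092 to 6815151) was dim on every array, with processed intensities of 17.3 (WT) and 18.6 (labelled *Dyrk2*-/-) for E8.5, then 43.5 and 26.0 for E10.5. The levels were −4.50 and −4.13, then −3.35 and −3.96. WT at E10.5 was the highest of the 4 arrays. *Dlx6* was 2.22-fold higher at E10.5 than at E8.5 in WT (1.15 ± 0.37), and the ratio was 0.17 ± 0.39 in *Dyrk2*-/-, which became −0.16 after a normexp background correction, 0.81 with spike-in scaling and 0.48 with no scaling. Between the genotypes it was 0.37 ± 0.43 at E8.5, and −0.18 under the spike-in scaling. For E10.5 the array labelled *Dyrk2*-/- was the lower one, 1.52-fold (−0.61 ± 0.31). After the normexp correction these values were 0.21 for the stage in WT and −0.12 for the genotype at E10.5.

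The *Dlx6* probe is printed because the direction at E10.5 was opposite to that of its neighbour *Dlx5*. It is an oligonucleotide of 60 bases on the + strand of mm9, given 5′ to 3′.
*Dlx6* probe, chr6:6815092-6815151: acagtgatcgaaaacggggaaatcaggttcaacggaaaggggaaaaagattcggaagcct
Of its bases 46.7% are G or C. The *Dlx5* and *Dlx6* probes lie 12911 bases apart in the annotation of the array.

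*Dlx3*, which acts in arch ectoderm, hair and bone and in the labyrinth of the placenta, read 0.26 (WT) and 0.52 (labelled *Dyrk2*-/-) for E8.5, then 0.40 and 0.34 for E10.5 (NM_010055, chromosome 11, 94986262 to 94986357). The 4 arrays lay close together. No ratio reached 1.5-fold, and the ratio between the genotypes was 0.26 ± 0.20 at E8.5, which became −0.28 under the spike-in scaling, and −0.07 ± 0.20 at E10.5, which became 0.10.

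*Msx1* and *Msx2* keep arch and limb mesenchyme proliferating and are needed for the palate, the teeth and the skull vault. *Msx1* (NM_010835, chromosome 5, 38212041 to 38212100) read 4.31 (WT) and 4.32 (labelled *Dyrk2*-/-) for E8.5, then 4.08 and 4.13 for E10.5. The ratios between the genotypes, 0.01 ± 0.20 and 0.06 ± 0.20, were smaller than the error and changed sign with the scaling, to −0.54 for the earlier stage with spike-in scaling and to −0.08 at E10.5 with no scaling.

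*Msx2* (NM_013601, chromosome 13, 53563333 to 53563392) read 2.62 (WT) and 2.37 (labelled *Dyrk2*-/-) for E8.5, then 2.10 and 2.05 for E10.5. Both E10.5 arrays were below both E8.5 arrays, by less than 1.5-fold. The stage ratio was −0.52 ± 0.20 in WT and −0.31 ± 0.20 in *Dyrk2*-/-. Under the spike-in scaling it became −0.59 in WT, just past 1.5-fold, and 0.32 in *Dyrk2*-/-. The genotype ratio was −0.25 ± 0.20 for the earlier stage, and −0.05 ± 0.20 for the later one, which became 0.11 under the spike-in scaling. The other *Msx2* probe had a genotype ratio of −0.40 ± 0.20 at E8.5.

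*Alx1* is needed for the frontonasal neural crest and the eye region. Its probe (NM_172553, chromosome 10, 102471570 to 102471629) read −1.66 (WT) and −1.71 (labelled *Dyrk2*-/-) for E8.5, then −0.66 and −0.41 for E10.5. Both later arrays were higher than both earlier ones. *Alx1* was 2-fold higher at E10.5 in WT and 2.46-fold higher in *Dyrk2*-/- (1.30 ± 0.21). The genotype ratio was −0.05 ± 0.22 at E8.5, which became 0.03 after the normexp correction, and 0.25 ± 0.21 at E10.5.

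*Alx4* restricts signals of posterior identity to the posterior limb bud and patterns the skull vault and the midface. Its probe (NM_007442, chromosome 2, 93521077 to 93521136) read −0.24 (WT) and 0.44 (labelled *Dyrk2*-/-) for E8.5, then 2.33 and 2.24 for E10.5. As for *Dlx2*, the stages were separate and the E8.5 array labelled *Dyrk2*-/- lay between WT at E8.5 and the E10.5 arrays. *Alx4* was 5.93-fold higher at E10.5 in WT (2.57 ± 0.20) and 3.50-fold higher in *Dyrk2*-/- (1.81 ± 0.20), which were 2.50 and 2.44 with spike-in scaling. At E8.5 it was 1.60-fold higher on the array labelled *Dyrk2*-/- (0.68 ± 0.20), which was 0.13 under the spike-in scaling and 0.42 with no scaling. At E10.5 the ratio was −0.09 ± 0.20, and 0.07 under the spike-in scaling.

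**Figure D2:**
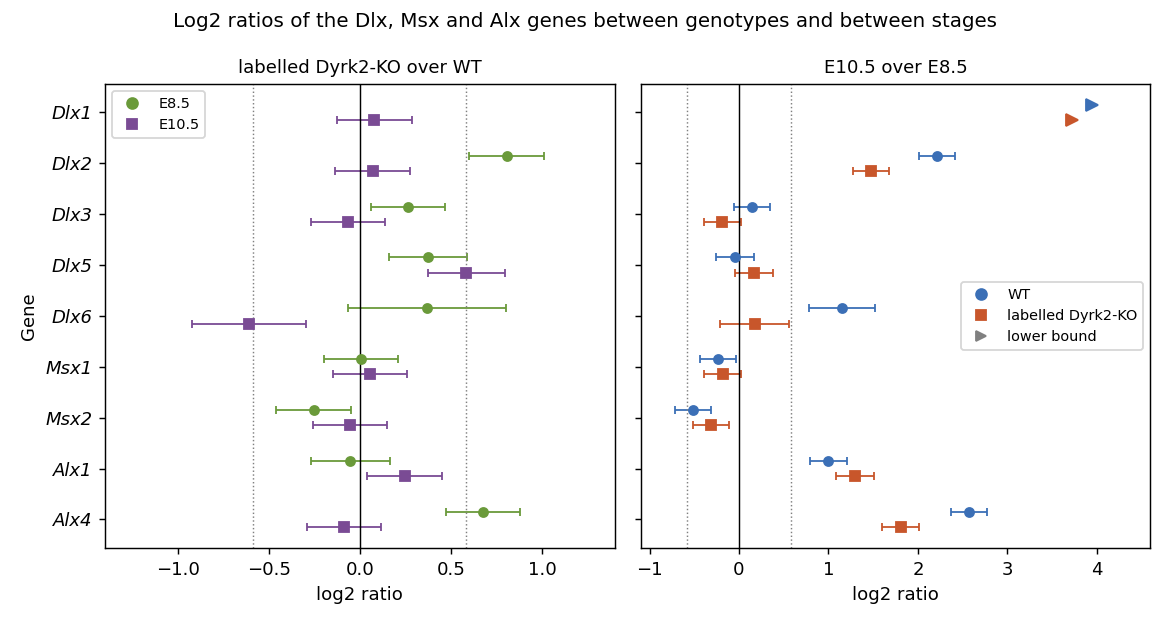
Log2 ratio of each gene (x axis) between the array labelled *Dyrk2*-/- and WT at each stage (left) and between E10.5 and E8.5 in each genotype (right), with the scanner software's error for the spots as bars, triangles for lower bounds and dotted lines at 1.5-fold. *Dlx2* (0.81) and *Alx4* (0.68) stand past the line at E8.5 and near 0 at E10.5. Under the spike-in scaling the E8.5 ratios of *Dlx3*, *Dlx5*, *Dlx6* and *Msx1* turn negative, while those of *Dlx2* and *Alx4* stay positive at 0.26 and 0.13.

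The same 4 arrays were fitted with limma, with stage and genotype as terms and 1 residual degree of freedom. For the stage, 5 of the 9 genes had an adjusted p under 0.05 (Benjamini-Hochberg over all probes), as did 35.3% of 32289 probes. *Dlx2* (log2 difference 1.84, adjusted p = 8.61e-05), *Alx4* (2.19, adjusted p = 3.00e-05) and *Alx1* (1.15, adjusted p = 0.000732) rose with stage. *Dlx1* was also called, but it entered the fit through the E10.5 arrays alone, so that its difference and p are not given. With a filter on all 4 arrays it was left out and 4 genes were called, as were 9926 of 28622 probes. *Alx1* missed the threshold under the spike-in scaling (adjusted p = 0.0755, range over the alternatives 9.12e-12 to 0.0755). *Msx2* had a difference of −0.41 (adjusted p = 0.0299), past the threshold in 2 of 9 alternatives, with adjusted p from 0.00308 to 1, and its other probe missed it (adjusted p = 0.0986). For the genotype over both stages, limma called 0 of the 9 genes, while it called 0.0186% of all probes. At an unadjusted p under 0.05 it had 2 of the 9, *Dlx2* and *Dlx5*, where 1592 of all probes (4.93%) had one. The alternatives also called 0 of the 9, with 0 (spike-in scaling) to 4 (no filter on dim probes) at an unadjusted p under 0.05. For the unadjusted counts of the alternatives no share of all probes is given. The differences of *Dlx2* and *Dlx5* were 0.44 (adjusted p = 0.995) and 0.48 (adjusted p = 0.912), each positive on E8.5 and on E10.5 arrays, though *Dlx5* at E8.5 (spike-in scaling) and *Dlx2* at E10.5 (no scaling) turned negative. The 1 residual degree of freedom is how far the genotype difference changes between the stages, and limma shares variance over all probes. Each group had 1 array, so the p-values do not measure a spread between embryos of a group.

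Other Dlx and Msx transcripts were read beside the set. *Dlx4*, the neighbour of *Dlx3*, was 2.30-fold and 1.67-fold higher at E10.5, and at E8.5 it was 1.55-fold higher on the array labelled *Dyrk2*-/- (0.63, and 0.08 under the spike-in scaling). The noncoding *Dlx6os1*, transcribed across the *Dlx5* and *Dlx6* region, was well above background on the E10.5 arrays only and 1.57-fold lower there on the array labelled *Dyrk2*-/-, as *Dlx6* was (−0.65 ± 0.24, and −0.23 after the normexp correction). With spike-in scaling it also missed 1.5-fold. Another of its probes was well above background on the WT E10.5 array alone and at least 1.69-fold lower on the other, and a further probe on none. *Dlx1as* had no array on which it stood well above background, and no ratio of the brightest *Msx3* probe reached 1.5-fold. With spike-in scaling that *Msx3* probe did pass it, lower on the E8.5 array labelled *Dyrk2*-/-. The other *Msx3* probe, well above background on each array, was 2.30-fold higher at E10.5 in WT and 1.65-fold higher in *Dyrk2*-/-.

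Ligands and receptors of the arches act upstream of these genes: endothelin (*Edn1*) acts on the lower arch, BMP ligands on *Msx1* and *Msx2*, and *Fgf8* and *Shh* come from the epithelium. All 14 were measured and 0 reached 1.5-fold between the genotypes at either stage with their brightest probe. Another *Ptch1* probe had a genotype ratio of −0.72 ± 0.21 (1.65-fold) for E10.5, the brightest one −0.39 ± 0.20 and a further one 0.50 ± 0.39. *Edn1* had genotype ratios of 0.24 at E8.5, which became −0.30 under the spike-in scaling, and 0.11 at E10.5, and *Bmp4* of 0.01, which became −0.54, and −0.04, which became 0.12. The ligand *Bmp2* had −0.28 and 0.52. Between the stages 4 of 14 were 1.5-fold or more lower at E10.5 and 0 higher in each genotype (2 lower and 2 higher in *Dyrk2*-/- with spike-in scaling), among them *Bmp2* (5.84-fold in WT and 3.36-fold in *Dyrk2*-/-) and *Fgf8* (3.62-fold and 3.26-fold). *Ptch1*, the hedgehog receptor, was 1.61-fold and 1.72-fold lower at E10.5, and *Jag1* was 1.80-fold lower in WT. Under the spike-in scaling, 8 of the 14 were 1.5-fold or more lower on the E8.5 array labelled *Dyrk2*-/-, as were 47.6% of all genes, and the median was −0.65 in place of −0.10. That scaling put 1 of the 14 past 1.5-fold upwards at E10.5.

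Of 25 other arch transcription factors, 11 were 1.5-fold or more higher and 4 lower at E10.5 in WT, and 8 higher and 4 lower in *Dyrk2*-/-, where it was 17 and 2 under the spike-in scaling. *Lhx8*, a LIM homeobox gene of the upper jaw and tooth mesenchyme, was 16.3-fold and 19.8-fold higher at its brightest probe, while its other probe had −0.04 ± 0.22 and 0.55 ± 0.22, and *Prrx1*, of limb and face mesenchyme, 4.75-fold and 3.56-fold. *Hand1* was 3.44-fold and 2.98-fold lower at E10.5. Between the genotypes, at the brightest probes, 1 of the 24 measured at E8.5 was higher and 2 lower (0 and 8 under the spike-in scaling). At E10.5, 0 of 25 were higher and 1 lower. The medians were 0.10 and −0.10, which became −0.44 and 0.07 under the spike-in scaling. Another *Prrx1* probe was 1.60-fold lower at E10.5 on the array labelled *Dyrk2*-/- (−0.68 ± 0.20). *Gsc* (goosecoid), a lower jaw gene downstream of *Dlx5* and *Dlx6*, read −2.27 (WT) and −3.36 (labelled *Dyrk2*-/-) for E8.5, then −0.48 and −1.51 for E10.5. It was lower on the array labelled *Dyrk2*-/- at both stages, 2.12-fold at E8.5 (−1.09 ± 0.25) and 2.03-fold at E10.5 (−1.02 ± 0.21), and the sign held under each scaling tried. *Hand2*, which also acts below endothelin in the lower arch, had ratios of 0.19, which became −0.36 under the spike-in scaling, and 0.01, which became −0.12 with no scaling. *Tbx22*, a palate gene, was 2.57-fold lower at E8.5 at its brightest probe and had a ratio of 0.31 at E10.5. *Pitx1*, of the lower jaw and hindlimb, was 1.66-fold higher at E8.5 (0.73, and 0.18 under the spike-in scaling).

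Outside the face these homeobox genes act in the limb bud, the forebrain and the placodes, and a whole embryo holds all of these. Of 13 limb bud genes measured, 4 were higher and 3 lower at E10.5 in WT, and 4 and 4 in *Dyrk2*-/- (7 and 2 with spike-in scaling). *Shox2*, needed for the upper limb segment, was 33.3-fold and 16.4-fold higher, and *Fgf4*, a ligand of the limb ridge and the tail bud, 8.71-fold and 11.6-fold lower. Between the genotypes 1 of 13 was higher and 0 lower at E8.5 (0 and 4 with spike-in scaling), and 0 were higher and 2 lower at E10.5 (0 and 0 after the normexp correction), where the lower genes were *Shox2* (1.55-fold) and *Fgf4* (1.80-fold). Of 7 genes of forebrain interneurons, which need *Dlx1* and *Dlx2* to mature, 5 were higher and 0 lower at E10.5 in WT, and 4 and 1 in *Dyrk2*-/-. At E10.5, 0 of the 7 were 1.5-fold or more higher on the array labelled *Dyrk2*-/- and 3 were lower, *Nkx2-1* (2.28-fold), *Slc32a1* (2.35-fold) and *Gad2* (1.94-fold), while at E8.5 1 of 5 was higher and 1 lower (0 and 3 with spike-in scaling). Of 8 placode genes, 2 of 6 measured at E8.5 were higher and 0 lower, *Hmx2* (at least 2.18-fold) and *Hmx3* (2.28-fold), with a median of 0.47, which became −0.07 with spike-in scaling. At E10.5, 0 of 7 passed the threshold with their brightest probe and the median was −0.39, while another *Hmx2* probe had −0.67 ± 0.36. Between the stages 4 of 7 were higher and 1 lower in WT, and 1 and 3 in *Dyrk2*-/- (3 and 2 with spike-in scaling).

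Markers of other cell types differed between the same arrays. In whole embryos, fewer cells of a type and less RNA per cell cannot be told apart, and the part of these markers in the ratios above was not tested. Of 9 erythrocyte genes, 8 were measured at E8.5 and 8 were 1.5-fold or more higher on the array labelled *Dyrk2*-/-. Their summed intensity, in units of the array's 75th percentile, was 13.0 (WT) and 262 (labelled *Dyrk2*-/-) for E8.5, with *Hbb-bh1* brightest, and 817 and 983 at E10.5, with *Hbb-y* brightest. At E10.5, 7 of 9 were 1.5-fold or more higher and 0 lower, with a median of 1.21. *Epb42* and *Klf1* were among the genes not well above background on the WT E8.5 array, and *Epb42* was not on the other. Of 8 yolk sac endoderm genes, 0 were higher and 6 lower at E8.5, with sums of 51.0 and 33.1 (*Rbp4* brightest), and 0 of 7 passed 1.5-fold at E10.5, with sums of 20.8 and 17.2 (*Afp* brightest); *Apoa4* was not well above background on either E10.5 array, nor *Amn* on the *Dyrk2*-/- one. Of the 6 trophoblast genes on the array, 2 of 4 were higher and 1 lower at E8.5, with sums of 14.5 and 9.58, and 0 of 2 passed it at E10.5, with sums of 16.0 and 18.9 (*Gcm1* brightest on each array). Of these, *Tpbpa* and *Cts7* were not well above background on any array. *Prl3d1* was well above background on the E8.5 array labelled *Dyrk2*-/- alone, and *Prl8a2* on the E8.5 arrays alone.

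The neural crest supplies most of the cells in which these genes act in the face. Of 7 neural crest genes, all well above background on each array, 1 was higher (*Sox10*, 1.64-fold) and 1 lower (*Sox9*, 1.65-fold at its brightest probe, while its other probe had 0.16 ± 0.21) at E8.5, where spike-in scaling gave 0 and 4, and 0 were at E10.5, where the median was −0.31. Their sums were 14.8 and 16.0 for the earlier stage and 20.9 and 17.8 for the later one, WT first, and the brightest gene was *Snai2*, *Sox10*, *Ngfr* and *Ngfr* in turn. Of 8 genes of neural tissue, 1 of 7 was higher and 0 lower at E8.5 (0 and 4 with spike-in scaling), and 0 of 8 passed 1.5-fold at E10.5, with sums of 35.5, 34.7, 59.5 and 48.1 in the same order, *Sox3* brightest and *Neurod1* not well above background at E8.5. Of 6 heart genes 0 passed 1.5-fold between the genotypes at either stage (with spike-in scaling 2 were lower at E8.5), though another *Nppa* probe was 1.90-fold higher at E8.5. The list had sums of 210.1, 219, 115 and 117, with *Myh6* brightest. Of 5 sex chromosome genes 0 of 4 passed 1.5-fold at E8.5 (with spike-in scaling 2 were lower). At E10.5 *Xist* was higher and the 4 Y-linked genes lower on the array labelled *Dyrk2*-/-, where the brightest probes of *Ddx3y*, *Eif2s3y*, *Kdm5d* and *Uty* were not well above background. Of the other *Kdm5d* probes, 1 stood well above background on both E10.5 arrays, with a ratio of −0.17 ± 0.23, and 3 more on the WT one alone, at least 3.91-fold, 1.74-fold and 1.20-fold lower on the other. Their sums were 4.67, 4.24, 3.52 and 0.816, with *Eif2s3y* brightest on the first 3 arrays and *Xist*, which was not well above background on those, on the last. Between the stages, WT before *Dyrk2*-/-, the number of genes 1.5-fold or more higher was 9 and 9 of 9 for erythrocytes, 2 and 2 of 7 for neural crest and 4 and 4 of 8 for neural tissue. The number lower was 7 and 7 of 8 for yolk sac endoderm, 1 and 2 of 7 for neural crest and 4 and 5 of 6 for heart, where spike-in scaling left 0 in *Dyrk2*-/-. With that scaling the neural crest had 4 higher and 0 lower in *Dyrk2*-/-.

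The labels give no somite number, so that a difference in developmental progress within a day and the genotype cannot be told apart. Nor can sex and genotype at E10.5, or sex and stage in *Dyrk2*-/-. Brightest probes of the sex chromosome genes had E10.5 genotype log2 ratios from −7.50 (lowest) to 6.65 (*Xist*), while another *Kdm5d* probe had −0.17. The part of sex in the ratios of these comparisons, those of *Dlx5*, *Dlx6* and *Gsc* included, was not tested.

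Genes with the most similar profile over the 4 arrays were found by the Euclidean distance between centred log2 levels, over 18805 other genes well above background on all 4. For *Alx4* they were *Twist2* (distance 0.11) and *Hes5* (0.15), and for *Dlx2* they were *Adh1* (0.10) and *Cox6a2* (0.11). *Twist2*, a bHLH factor of skin and skull mesenchyme, had levels of −0.10, 0.49, 2.36 and 2.24 on the arrays, WT first at each stage. For *Alx1* they were BB325154 and *Slc43a3*, for *Dlx5* ENSMUST00000101281 and *C4b*, and for *Dlx6* *Teddm2* and *Dusp26*. *Dlx3* (nearest *Wiz* and *Brip1*) and *Msx1* (NAP030387-1 and *Haus8*) varied by 0.26 and 0.24 over the arrays, so that many genes lie near them, and for *Msx2* they were NAP102544-1 and *Glrx*. Paralogues were not among the nearest. *Alx1* ranked 876 for *Alx4* and *Alx4* ranked 7506 for *Alx1*, *Msx2* ranked 6233 for *Msx1*, and *Dlx6* ranked 15903 for *Dlx5*. *Dlx1*, below background at E8.5, was not included.

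Promoters are shown for *Dlx2*, which rose between the stages, and for *Msx1* and *Msx2*, which were within 1.5-fold. RefSeq's table (GRCm38.p6) held 4 of the 9 genes. The 250 bases before the start are given 5′ to 3′, all on the − strand, with 3 of the motifs searched in capitals, on either strand: TAATTA (the core bound by many homeodomains, Dlx and Msx among them), CCAAT and GGGCGG.
*Dlx2*, chr2:71546755-71547004: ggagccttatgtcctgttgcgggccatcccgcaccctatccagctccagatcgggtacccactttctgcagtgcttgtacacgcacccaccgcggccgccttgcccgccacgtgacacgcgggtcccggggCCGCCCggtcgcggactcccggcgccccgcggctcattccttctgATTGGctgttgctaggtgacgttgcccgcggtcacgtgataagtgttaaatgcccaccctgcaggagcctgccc
*Msx1*, chr5:37824586-37824835: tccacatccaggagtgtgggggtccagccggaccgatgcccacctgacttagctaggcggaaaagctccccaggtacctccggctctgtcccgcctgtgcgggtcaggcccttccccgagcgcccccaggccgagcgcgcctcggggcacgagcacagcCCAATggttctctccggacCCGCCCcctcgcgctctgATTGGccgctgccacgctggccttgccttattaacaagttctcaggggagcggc
*Msx2*, chr13:53472781-53473030: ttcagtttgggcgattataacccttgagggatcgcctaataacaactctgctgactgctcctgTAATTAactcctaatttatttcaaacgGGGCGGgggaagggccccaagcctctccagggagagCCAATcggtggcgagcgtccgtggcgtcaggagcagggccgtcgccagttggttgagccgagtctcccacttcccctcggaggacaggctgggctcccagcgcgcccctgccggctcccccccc
Each of the 3 holds a CCAAT and a GGGCGG motif, *Msx1* 2 of the former, and *Msx2* alone holds TAATTA, whose first base lies 187 before the start. Of 32851 promoters in the table, 33.8% hold CCAAT, 32.7% GGGCGG and 4.84% TAATTA. The motif TATAAA, found in 12.4% of promoters, is in none of the 3, and CANNTG, found in 66.2%, occurs 2 times in *Dlx2* and 1 time each in *Msx1* and *Msx2*, in places that do not overlap with the capitals. The promoter of *Dlx1*, the other gene in the table, holds none of the 5 motifs. These matches describe the sequence and say nothing of binding.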

How the data were processed

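RNA of 4 whole embryo samples was measured on 1 slide, with 1 array per group. The deposited scanner files of the authors come from Agilent Feature Extraction (10.7.1.1 in the file header, 9.5.1.1 in the submitters' processing notes) and hold linear processed intensity that is background-subtracted and not scaled between arrays. The deposited table, in which the arrays share a scale, was used as an alternative. Each array holds 62976 spots, 59305 of them not controls and 0 saturated. The number of arrays limits the precision, and no depth applies.

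Log2 intensities of replicate spots were averaged, leaving out outlier spots, and the 75th percentile was subtracted. Ratios were taken where at least 1 of the 2 arrays had the probe well above background, and 1.5-fold or more counted as changed. Well above background were 31370, 30226, 31818 and 31943 probes, WT first at each stage. RefSeq accessions named 32993 probes, of which 1535 got another name, and 1 probe without a value was left out. Coordinates of probes are those of the array (mm9). Errors are those of the scanner software, and replicate spots had a median SD of 0.0938, 0.118, 0.0732 and 0.0834 (log2).

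The genotype and the stage were tested with limma 3.58.1 (lmFit, eBayes with an intensity trend) over the probes that 2 or more arrays had well above background, and steps were tested on simulated data. R 4.3.3, data.table (1.17.8), Python 3.11.15, pandas 2.3.3 and matplotlib 3.10.9 were used. The alternatives were quantile normalization, spike-in scaling, no scaling, normexp with an offset of 50, the deposited table, other filters on dim probes, the mean over probes, a 2-fold threshold, 1.5-fold together with a Z-score over 2 or under −2 in a window of 500 probes, and limma without the trend. The genes named are the 9 members, *Dyrk2*, the members of 13 lists of other genes and markers that changed or whose role bears on the set, and the 2 nearest profiles of each member. The members and lists were chosen with earlier results of these data known.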

Additional observations from a re-analysis of the deposited data

Results flagged for a closer look

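*Dlx6* and *Alx4* had genotype ratios of opposite sign at the 2 stages, with 1 of them past 1.5-fold and the other within its spot error. For *Dlx6* the log2 ratio was 0.37 for the earlier and −0.61 for the later stage, a difference of −0.98 with an error of 0.54 from the spots. For *Alx4* it was 0.68 and −0.09, a difference of −0.76 with an error of 0.29. The difference was −0.37 and −0.65 after the normexp correction and −0.27 and −0.05 under the spike-in scaling, where the opposite signs were lost (*Dlx6* −0.18 and −0.45, *Alx4* 0.13 and 0.07) and no ratio passed 1.5-fold. *Dlx2*, with ratios of 0.81 and 0.07, had a difference of −0.74 without a change of sign, and −0.03 under the spike-in scaling. The difference between the stages was not tested, since each ratio rests on 1 array per group.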

How the results depend on the processing

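The log2 ratios of single genes were recomputed under 210 combinations of ratio and alternative, of which 168 moved by less than the error of the spots and 42 by more. The sign was kept in 188, and 0 of the ratios past 1.5-fold changed sign. At E8.5 the number of genes past the threshold between the genotypes was 2. With no scaling it was 0, after the normexp correction 1 (all genes 1.3% higher and 1.65% lower), and at a 2-fold threshold 0. With no filter on dim probes it was 3, the added gene being *Dlx1*, which was not well above background on either E8.5 array. Where 1.5-fold and a Z-score over 2 or under −2 were both asked for, the number was 1. With spike-in scaling it was also 2, but these were *Msx2* and *Alx1*, both lower. At E10.5 the number was 2. It was 1 under the spike-in scaling, 1 with no scaling, 0 after the normexp correction (all genes 0.866% higher and 0.684% lower), 0 at 2-fold and 1 with the Z-score. Between the stages in WT it was 5, and 3 with the Z-score, 6 with spike-in scaling and 4 or 5 otherwise. In *Dyrk2*-/- it was 4, and 6 with spike-in scaling and 3 or 4 otherwise. After the normexp correction it was 4 in each genotype. All genes were then 10.4% higher and 11.4% lower in WT, and 8.22% and 8.14% in *Dyrk2*-/-. No share of all genes is given for the counts with other filters on dim probes, the mean over probes, 2-fold or the Z-score. Those counts therefore have no share to be set against. For the stage limma called 5 genes, 3 under the spike-in scaling (2633 of 32289 probes) and 4 or 5 in the other alternatives, and for the genotype 0 in each. With no scaling (11768 of 32289 probes) the 5 included *Dlx6* (limma adjusted p = 0.0356) and not *Msx2* (0.468). The causes of these changes were not tested. Limma called 0 of all probes for the genotype without the intensity trend and between 3 and 729 in the other alternatives, against 6. No paired analysis was possible because the labels give no replicate numbers and each group has 1 array. Low signal over background limits *Dlx1* at E8.5 and *Dlx6* on each array.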
